A study of Mus musculus with 15 samples.

Results

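The Wnt ligands, their Frizzled receptors and 3 families of secreted Wnt modulators were followed through the conversion of mouse embryonic fibroblasts (MEFs) toward induced myogenic progenitor cells. Members were chosen by name among the protein-coding genes of GRCm38, whatever their level. The rule took 41 of 35675 genes, namely 19 Wnt ligands, 10 Frizzled receptors (Fzd), 4 R-spondins (Rspo), 4 secreted frizzled-related proteins (Sfrp) and 4 Dickkopf proteins (Dkk). Sfrp3, which the files name Frzb, falls outside the rule and is described with the other genes of the pathway.

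RNA from 15 cultures had been sequenced, 3 MEF lines in each of 5 conditions. All cells were primary MEFs of the genotype Tg:Pax7-nGFP/C57BL6;DBA2, each line made from a single embryo after the head and internal organs were removed, so the 3 libraries of a condition are separate lines and the same lines recur in every condition. The groups were +MyoD+F/R/C+SP, +MyoD+F/R/C+CP, +MyoD+F/R/C, +MyoD and MEFs. The 4 groups with MyoD were transfected 4 times with synthetic MyoD mRNA in iMPC medium, with B18R, an interferon-binding protein, and were collected at day 10. F/R/C stands for forskolin, which raises cAMP, RepSox, which inhibits the TGF-β receptor, and CHIR99210, an inhibitor of GSK3. SP is SP600125, a JNK inhibitor, and CP is CP690550, a JAK inhibitor. MEFs were untreated, kept in the same iMPC medium, and are labelled day 10 as well, although another name in the deposit gives day 0. No group was transfected without MyoD mRNA. In +MyoD against MEFs, MyoD therefore cannot be told apart from the transfections, B18R or, if day 0 holds, time in culture. Below, the MyoD step and changes with MyoD refer to this comparison as a whole. These are bulk cultures of mixed cells, so fewer cells of a type and less RNA per cell cannot be told apart.

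Wnt ligands are secreted lipid-modified proteins that bind Frizzled receptors together with LRP5 or LRP6. In the canonical branch this binding holds back GSK3 and lets β-catenin enter the nucleus, and in the other branches it acts on cell polarity and calcium. R-spondins act through LGR receptors and keep Frizzled proteins on the cell surface, Sfrp proteins bind Wnt ligands outside the cell, and Dkk1, Dkk2 and Dkk4 block LRP5 and LRP6. In embryonic and regenerating muscle these ligands and modulators come both from the myogenic cells and from the connective tissue around them. CHIR99210 acts on GSK3, below the ligands and receptors.

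Estimated counts of each library summed to between 29393872 and 41885769. Levels are given in CPM, the counts of a gene scaled to the TMM-normalized size of its library, in the order of replicates 1, 2 and 3. Differences are log2 fold changes (log2FC) with their standard error (SE) from edgeR's quasi-likelihood test over all 15 libraries, with Benjamini-Hochberg adjustment over 19331 genes. Genes with an adjusted p up to 0.05 and a change of more than 0.5 on the log2 scale were called higher or lower. Myod1 stood at 787 to 3845 CPM in the 12 transfected libraries, against 0.113 to 0.556 CPM in MEFs. All 10 listed fibroblast markers were detected in every group, with summed levels of 14527 to 23610.3 CPM in +MyoD+F/R/C, 12667 to 44019.8 CPM in +MyoD and 3224 to 4349 CPM in MEFs. The summed level of 10 muscle markers was 6428 to 10094 CPM in +MyoD+F/R/C, 1920.2 to 2344 CPM in +MyoD and 67.4 to 91.2 CPM in MEFs.

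Of the 41 members, 37 had enough counts to be tested and 28 were called in 1 or more of 5 comparisons. Wnt1, Wnt3a and Dkk4 had no count in any library, and Wnt8a, with totals of 26 counts in +MyoD+F/R/C, 0 in +MyoD and 6 in MEFs, did not pass the filter. In +MyoD against MEFs, 16 of 37 members were called higher and 2 lower, where 22.8% and 18.0% of all genes tested were. In +MyoD+F/R/C against +MyoD, 14 were called higher and 7 lower, against 10.9% and 8.39% of all genes. In +MyoD+F/R/C against MEFs, 20 were called higher and 4 lower, against 26.6% and 21.6% of all genes. The median log2FC of the 37 was 0.79, 1.0 and 2.16 in these comparisons, beside 0.12, 0.03 and 0.19 over all genes. From the 2 compared groups alone, where 31 members were tested, 7 were called higher and 4 lower at the F/R/C step, and Dkk2, Fzd1, Fzd7, Rspo1, Sfrp1, Wnt5b, Wnt9a, Wnt9b, Wnt11 and Wnt16 were not called. At the MyoD step the same restriction lost Sfrp2, Wnt2, Wnt3 and Wnt4. The last comparison shares its libraries with the other two, so it adds no independent evidence.

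Other signs moved with the F/R/C step, and some with the MyoD step. Mitochondrial genes took 2.98 to 3.10% of the counts in +MyoD+F/R/C, against 1.43 to 1.80% in +MyoD, without overlap. The 7 satellite cell markers summed to 16.7 to 22.5 CPM in +MyoD+F/R/C, against 2.35 to 3.64 CPM in +MyoD, and 4 of them were called higher. Of the 10 fibroblast markers, whose sums overlapped, Dcn, Lum, Pdgfra and Pdgfrb were called higher and Col1a2 lower. All 10 muscle markers were called higher. Chondrocyte markers summed to 14.67 to 16.25 CPM in +MyoD+F/R/C, against 26.9 to 76.3 CPM in +MyoD. Macrophage markers summed to 6.88 to 10.4 CPM against 12.5 to 22.5 CPM, and endothelial markers to 6.67 to 11.4 CPM against 3.38 to 3.95 CPM. The sums of the epithelial, melanocyte, adipocyte and neuron markers overlapped. Of their single genes, Cdh1 (epithelial), Pparg and Plin1 (adipocyte) and Elavl3 and Snap25 (neuron) were called higher, and none was called lower. At the MyoD step, epithelial markers summed to 18.5 to 35.7 CPM in +MyoD against 80.8 to 95.3 CPM in MEFs. In MEFs, chondrocyte markers summed to 120 to 235 CPM and endothelial markers to 6.87 to 10.2 CPM, above +MyoD. Melanocyte markers (4.53 to 5.77 CPM in MEFs) and satellite cell markers (1.45 to 2.10 CPM) were below +MyoD. The macrophage, adipocyte and neuron sums overlapped. The part of these markers and of the mitochondrial share in the differences of the members was not tested.

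The 37 tested members divided by what they did at the MyoD step and at the F/R/C step. Wnt4, Wnt16, Fzd1, Fzd9, Rspo4, Sfrp1 and Sfrp2 were called higher at both steps. Wnt9a, Fzd5, Rspo2 and Rspo3 were called higher with MyoD and lower when F/R/C was added. Wnt3, Wnt10a, Fzd8, Sfrp4 and Dkk3 were called higher with MyoD alone, and Wnt2b, Wnt5b, Wnt6, Wnt9b, Wnt11 and Rspo1 were called higher at the F/R/C step alone. Wnt2 was called lower with MyoD and then higher with F/R/C, Wnt7a was called lower with MyoD, and Wnt10b, Fzd7 and Dkk2 were called lower at the F/R/C step. The other 10 were called at neither step.

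**Figure D1:**
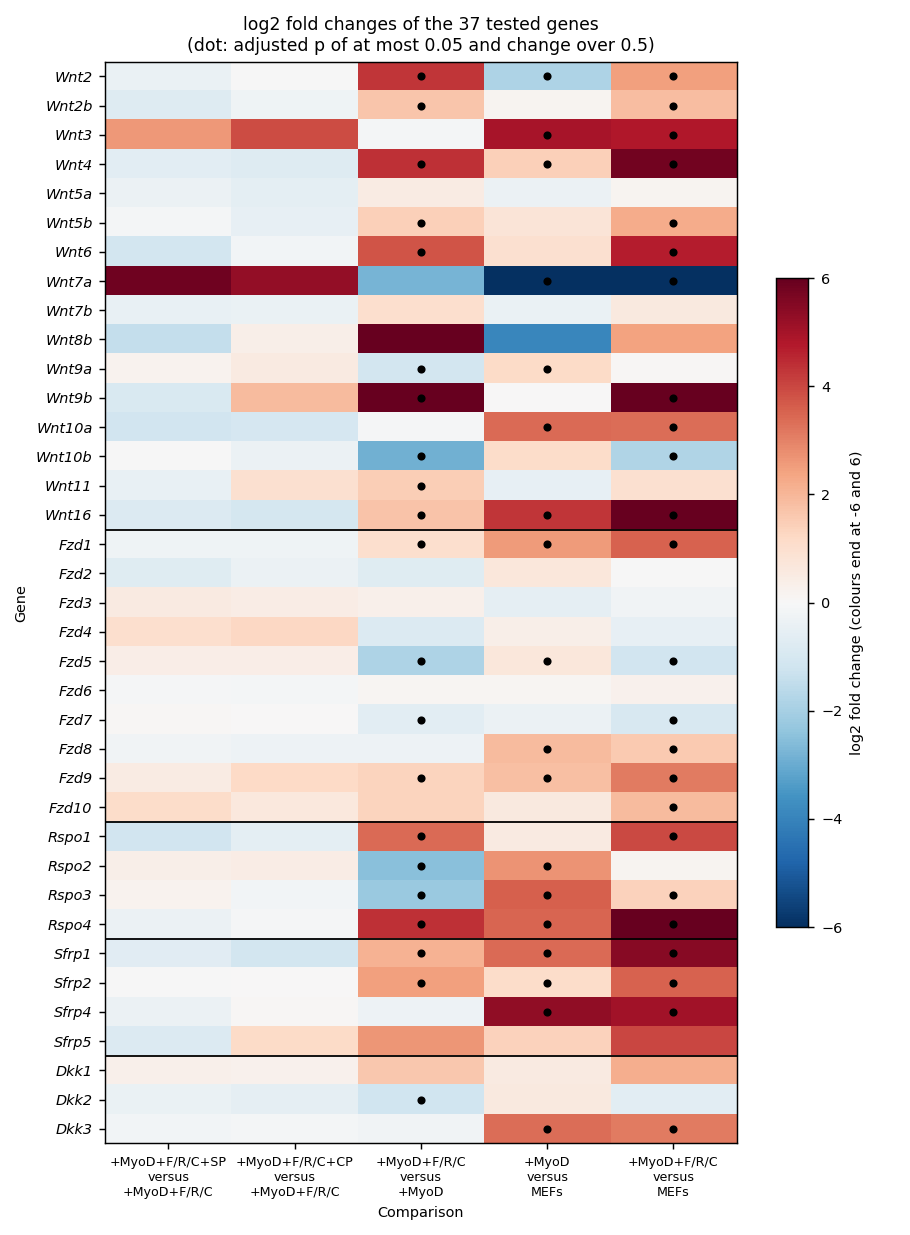
log2FC (colour) of the 37 tested members (rows, grouped by family) in the 5 comparisons (columns), with a dot where a difference was called. The SP and CP columns hold no dot, while the columns for +MyoD+F/R/C against +MyoD and for +MyoD against MEFs hold 21 and 18.

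Apart from Wnt9b, which rested on few reads, Rspo4, Wnt4 and Wnt2 had the largest called increases of the members at the F/R/C step, and Fzd1 was the most abundant receptor there, so their promoters are shown. The sequences are those of RefSeq on GRCm38.p6, from 250 bases before to 50 bases after the start site, and 27 of the 41 members matched, with 30 start sites. Capitals mark 3 motifs on either strand. CANNTG is the E-box, the class of site that MyoD binds, and the E-box form CAGCTG was also counted on its own. TGACG is the core of the cAMP response element. CTTTGA is the core bound by TCF/LEF factors.
Rspo4 promoter, chr2:151842677-151842976, + strand: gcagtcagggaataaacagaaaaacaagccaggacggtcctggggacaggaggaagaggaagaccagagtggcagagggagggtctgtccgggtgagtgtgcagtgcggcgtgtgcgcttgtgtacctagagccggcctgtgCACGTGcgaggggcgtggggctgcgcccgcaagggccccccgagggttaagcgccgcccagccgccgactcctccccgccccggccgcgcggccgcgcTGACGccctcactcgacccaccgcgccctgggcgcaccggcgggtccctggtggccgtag
Wnt4 promoter, chr4:137277385-137277684, + strand: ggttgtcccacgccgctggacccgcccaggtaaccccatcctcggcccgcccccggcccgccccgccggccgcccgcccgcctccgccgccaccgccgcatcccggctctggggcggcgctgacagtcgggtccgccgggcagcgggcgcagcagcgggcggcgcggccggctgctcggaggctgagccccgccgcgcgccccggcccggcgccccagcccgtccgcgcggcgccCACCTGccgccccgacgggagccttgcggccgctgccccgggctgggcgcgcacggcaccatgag
Wnt2 promoter, chr6:18030396-18030695, - strand: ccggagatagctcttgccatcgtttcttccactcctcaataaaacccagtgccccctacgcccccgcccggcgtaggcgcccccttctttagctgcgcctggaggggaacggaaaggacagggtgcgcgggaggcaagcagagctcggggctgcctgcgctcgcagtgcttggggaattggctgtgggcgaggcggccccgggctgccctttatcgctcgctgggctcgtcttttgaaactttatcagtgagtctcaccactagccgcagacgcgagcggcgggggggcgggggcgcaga
Fzd1 promoter, chr5:4758167-4758466, - strand: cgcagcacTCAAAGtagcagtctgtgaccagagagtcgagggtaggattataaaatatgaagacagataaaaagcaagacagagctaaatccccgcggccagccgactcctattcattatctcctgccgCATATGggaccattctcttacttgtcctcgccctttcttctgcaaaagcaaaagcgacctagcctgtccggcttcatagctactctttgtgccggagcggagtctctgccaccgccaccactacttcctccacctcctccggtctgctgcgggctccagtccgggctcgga
The Rspo4 window held 1 E-box and 1 TGACG, the Wnt4 window 1 E-box, the Fzd1 window 1 E-box and 1 TCF/LEF core, and none of these letters were in the Wnt2 window. Over the 30 member windows an E-box occurred in 66.7%, CAGCTG in 6.67%, TGACG in 16.7% and CTTTGA in 13.3%. Over all 32851 windows of the same length the shares were 72.3%, 16.3%, 20.8% and 16.0%. Member windows had a median of 28 CpG dinucleotides and 69.8% GC, beside 7 and 52.7% over all windows. The 16 windows of genes called higher at the F/R/C step held an E-box in 11, TGACG in 3 and CTTTGA in 3. The 5 windows of genes called lower held them in 3, 1 and 0. These are windows, not genes: Wnt11 and Wnt5b entered with several start sites, and each Wnt11 window held TGACG.

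Among the ligands, the data show a culture whose Wnt RNA was mostly Wnt5a in MEFs and more mixed after F/R/C. Per length, in TPM (the deposited transcript abundance, scaled within each library), the summed level of the 19 ligands was 204 ± 36.4 in +MyoD+F/R/C, 104 ± 13.9 in +MyoD and 96.8 ± 14.2 in MEFs (SD, n = 3). Wnt5a made up 44.8% ± 3.61 of it in +MyoD+F/R/C, 64.4% ± 9.01 in +MyoD and 78.7% ± 1.89 in MEFs. Wnt4 came second in +MyoD+F/R/C with 17.4% ± 2.59, followed by Wnt16 with 9.48% ± 2.83 and Wnt2 with 8.84% ± 2.14.

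Wnt5a, a ligand of the non-canonical branches, was the most abundant ligand in all 15 libraries. It had 238, 254 and 156 CPM in +MyoD+F/R/C, 186, 108 and 166 CPM in +MyoD and 149, 217 and 215 CPM in MEFs. The groups overlapped, and no difference was called, with log2FC 0.49 ± 0.21 SE, adjusted p = 0.12 for +MyoD+F/R/C against +MyoD. Without +MyoD+F/R/C replicate 3, the lowest of its group, that difference was called (log2FC 0.69, adjusted p = 0.035).

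Wnt4, a ligand needed in kidney and gonad development, had 79.7, 101 and 78.4 CPM in +MyoD+F/R/C, 4.73, 1.80 and 6.02 CPM in +MyoD and 2.14, 1.47 and 0.995 CPM in MEFs. Every +MyoD+F/R/C library was above every +MyoD library (log2FC 4.37 ± 0.37 SE, adjusted p = 2.6e-06). With MyoD alone the increase was smaller and 1 +MyoD library lay inside the range of MEFs, although each line was higher than its own MEFs (log2FC 1.44 ± 0.37 SE, adjusted p = 0.0051).
Wnt2, a canonical ligand, had 16.9, 29.5 and 20.3 CPM in +MyoD+F/R/C, 2.60, 0.466 and 0.326 CPM in +MyoD and 2.67, 4.84 and 4.48 CPM in MEFs. The 3 groups did not overlap in either step. It fell with MyoD (log2FC -1.83 ± 0.57 SE, adjusted p = 0.017), the replicate 1 library staying nearest to MEFs, and rose with F/R/C to above the MEF level (log2FC 4.30 ± 0.61 SE, adjusted p = 0.00014). The MyoD call was lost without MEFs replicate 2, +MyoD replicate 2 or +MyoD replicate 3 (log2FC -1.67 to -1.39, adjusted p = 0.051 to 0.066).
Its paralog Wnt2b had 22.1, 17.2 and 18.8 CPM in +MyoD+F/R/C, 7.64, 5.56 and 4.87 CPM in +MyoD and 5.59, 5.89 and 4.48 CPM in MEFs. The increase came with F/R/C (log2FC 1.68 ± 0.21 SE, adjusted p = 4.3e-05), and +MyoD and MEFs overlapped.

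Wnt16, a ligand known from bone and joint, had 18.0, 25.4 and 9.06 CPM in +MyoD+F/R/C, 1.03, 8.21 and 6.76 CPM in +MyoD and 0.139, 0.311 and 0.351 CPM in MEFs. It rose at both steps (log2FC 4.31 ± 0.66 SE, adjusted p = 7.6e-05 with MyoD and log2FC 1.71 ± 0.54 SE, adjusted p = 0.034 with F/R/C), but +MyoD replicate 1 was far below the other +MyoD libraries. The F/R/C call was lost without +MyoD+F/R/C replicate 1 or +MyoD+F/R/C replicate 2 (log2FC 1.34 to 1.70, adjusted p = 0.072 to 0.14).
Wnt5b, close in sequence to Wnt5a, had 14.6, 13.0 and 8.42 CPM in +MyoD+F/R/C, 2.07, 5.76 and 5.46 CPM in +MyoD and 2.92, 2.58 and 2.17 CPM in MEFs. The 3 libraries with F/R/C were the highest (log2FC 1.43 ± 0.34 SE, adjusted p = 0.007), and +MyoD replicate 1 lay below MEFs.
Wnt11, a non-canonical ligand, had 2.57, 6.69 and 3.56 CPM in +MyoD+F/R/C, 1.25, 2.18 and 1.16 CPM in +MyoD and 1.0, 3.20 and 2.37 CPM in MEFs. It was called higher with F/R/C than with +MyoD (log2FC 1.48 ± 0.48 SE, adjusted p = 0.037), while +MyoD+F/R/C and MEFs overlapped. That call was lost without +MyoD replicate 1, +MyoD+F/R/C replicate 2 or +MyoD replicate 3 (log2FC 1.0 to 1.35, adjusted p = 0.099 to 0.19). Wnt11 counts include transcripts annotated for nonsense-mediated decay. Wnt11-204 was assigned 0 to 57.5% of the gene's TPM in +MyoD+F/R/C, and Wnt11-202 was assigned 0 to 68.3% in +MyoD. The protein-coding Wnt11-205 had 0 to 46.3% and 17.5 to 31.7% in these groups.

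Wnt9a, a canonical ligand of joints, and Wnt10b, a canonical ligand that restrains adipogenesis, were the ligands called lower with F/R/C than with +MyoD. Wnt9a had 8.63, 10.0 and 10.5 CPM in +MyoD+F/R/C, 27.4, 23.1 and 11.2 CPM in +MyoD and 7.45, 9.46 and 10.7 CPM in MEFs. It rose with MyoD (log2FC 1.16 ± 0.28 SE, adjusted p = 0.0032) and with F/R/C was back inside the range of MEFs (log2FC -1.08 ± 0.28 SE, adjusted p = 0.012). The second call was lost without +MyoD replicate 1 or +MyoD+F/R/C replicate 1 (log2FC -0.97 to -0.81, adjusted p = 0.055 to 0.057).
Wnt10b had 0.804, 0.545 and 1.38 CPM in +MyoD+F/R/C, 4.67, 12.1 and 3.71 CPM in +MyoD and 3.78, 2.10 and 3.60 CPM in MEFs. All +MyoD+F/R/C libraries were below every other library of these groups (log2FC -2.90 ± 0.63 SE, adjusted p = 0.0039), and +MyoD replicate 2 was the highest. The call against MEFs (log2FC -1.79 ± 0.61 SE, adjusted p = 0.023) was lost without MEFs replicate 1, +MyoD+F/R/C replicate 1, +MyoD+F/R/C replicate 2 or MEFs replicate 3 (log2FC -1.73 to -1.53, adjusted p = 0.058 to 0.087), and with counts scaled by transcript length (log2FC -1.44, adjusted p = 0.055).
Wnt10a had 2.80, 1.36 and 1.44 CPM in +MyoD+F/R/C, 0.971, 1.60 and 3.29 CPM in +MyoD and 0.167, 0.227 and 0.146 CPM in MEFs. It was called higher with MyoD (log2FC 3.42 ± 0.57 SE, adjusted p = 0.00016) and stayed in the same range with F/R/C.

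The remaining called ligands rested on few reads. Wnt7a had 0, 0 and 0 counts in +MyoD+F/R/C, 2, 0 and 0 in +MyoD and 43, 155 and 61 in MEFs, so nearly all of its reads were in MEFs. Against the floor of 3 counts over a group it was at least 102-fold lower in +MyoD+F/R/C than in MEFs (adjusted p = 0.00033). In +MyoD the ratio of MEFs over +MyoD was 123, with an exact counting interval of 33.6 to 1019 (adjusted p = 0.0014).
Wnt6 had 59, 78 and 95 counts in +MyoD+F/R/C, 9, 4 and 0 in +MyoD and 0, 6 and 1 in MEFs. Its increase with F/R/C did not overlap with +MyoD (log2FC 3.78 ± 0.98 SE, adjusted p = 0.012).
Wnt3 had 2, 0 and 10 counts in +MyoD+F/R/C, 4, 6 and 0 in +MyoD and 0, 0 and 0 in MEFs. The groups overlapped at 0, and neither call was kept once the line entered as a block (log2FC 4.68, adjusted p = 0.065 for +MyoD+F/R/C and log2FC 5.05, adjusted p = 0.055 for +MyoD, each against MEFs). The call of +MyoD was also lost without MEFs replicate 1, +MyoD replicate 1, MEFs replicate 2, +MyoD replicate 2 or MEFs replicate 3 (log2FC 4.28 to 4.95, adjusted p = 0.065 to 0.1), and that of +MyoD+F/R/C without MEFs replicate 1, MEFs replicate 2, MEFs replicate 3 or +MyoD+F/R/C replicate 3 (log2FC 3.08 to 4.83, adjusted p = 0.079 to 0.19). At the floor of 3 counts for MEFs, and with the few counts of +MyoD taken as observed, Wnt3 was 3.52-fold higher in +MyoD.
Wnt9b had 29, 0 and 4 counts in +MyoD+F/R/C and none in +MyoD or MEFs, and 29 of the 33 came from replicate 1. It was at least 8.82-fold higher in +MyoD+F/R/C than in +MyoD, a call that was lost with the line as a block (log2FC 5.82, adjusted p = 0.067) and without +MyoD replicate 1, +MyoD+F/R/C replicate 1, +MyoD replicate 2 or +MyoD replicate 3 (log2FC 3.85 to 6.40, adjusted p = 0.081 to 0.19). Against MEFs the call was lost without +MyoD+F/R/C replicate 1 (log2FC 3.85, adjusted p = 0.1).

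Of the ligands not called, Wnt7b, a canonical ligand of epithelia, had 9.90, 5.60 and 5.69 CPM in +MyoD+F/R/C, 8.55, 0.582 and 1.39 CPM in +MyoD and 5.59, 4.28 and 4.13 CPM in MEFs. Replicate 1 of +MyoD stood above MEFs and the other +MyoD libraries below them. Without that library Wnt7b was called lower in +MyoD than in MEFs (log2FC -2.24, adjusted p = 0.00029) and higher in +MyoD+F/R/C than in +MyoD (log2FC 2.84, adjusted p = 0.0002). Wnt8b had 33 counts over the 3 +MyoD+F/R/C libraries, 0 in +MyoD and 5 in MEFs.

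Several ligand genes lie next to each other, and these neighbours did not always move alike. Wnt6 and Wnt10a lie 6.2 kb apart on chromosome 1, on the same strand (GRCm38, 74771892 to 74785322 and 74791516 to 74804179). Wnt10a was called higher at the MyoD step and Wnt6 at the F/R/C step. Wnt9a and Wnt3a lie 16.2 kb apart on chromosome 11, and Wnt3a had no counts while Wnt9a was among the more abundant ligands. Wnt10b and Wnt1 lie 11.7 kb apart on chromosome 15, where Wnt1 had no counts. Wnt9b and Wnt3 lie 24.3 kb apart on chromosome 11, and both were at 0 in all 3 MEF libraries.

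**Figure D2:**
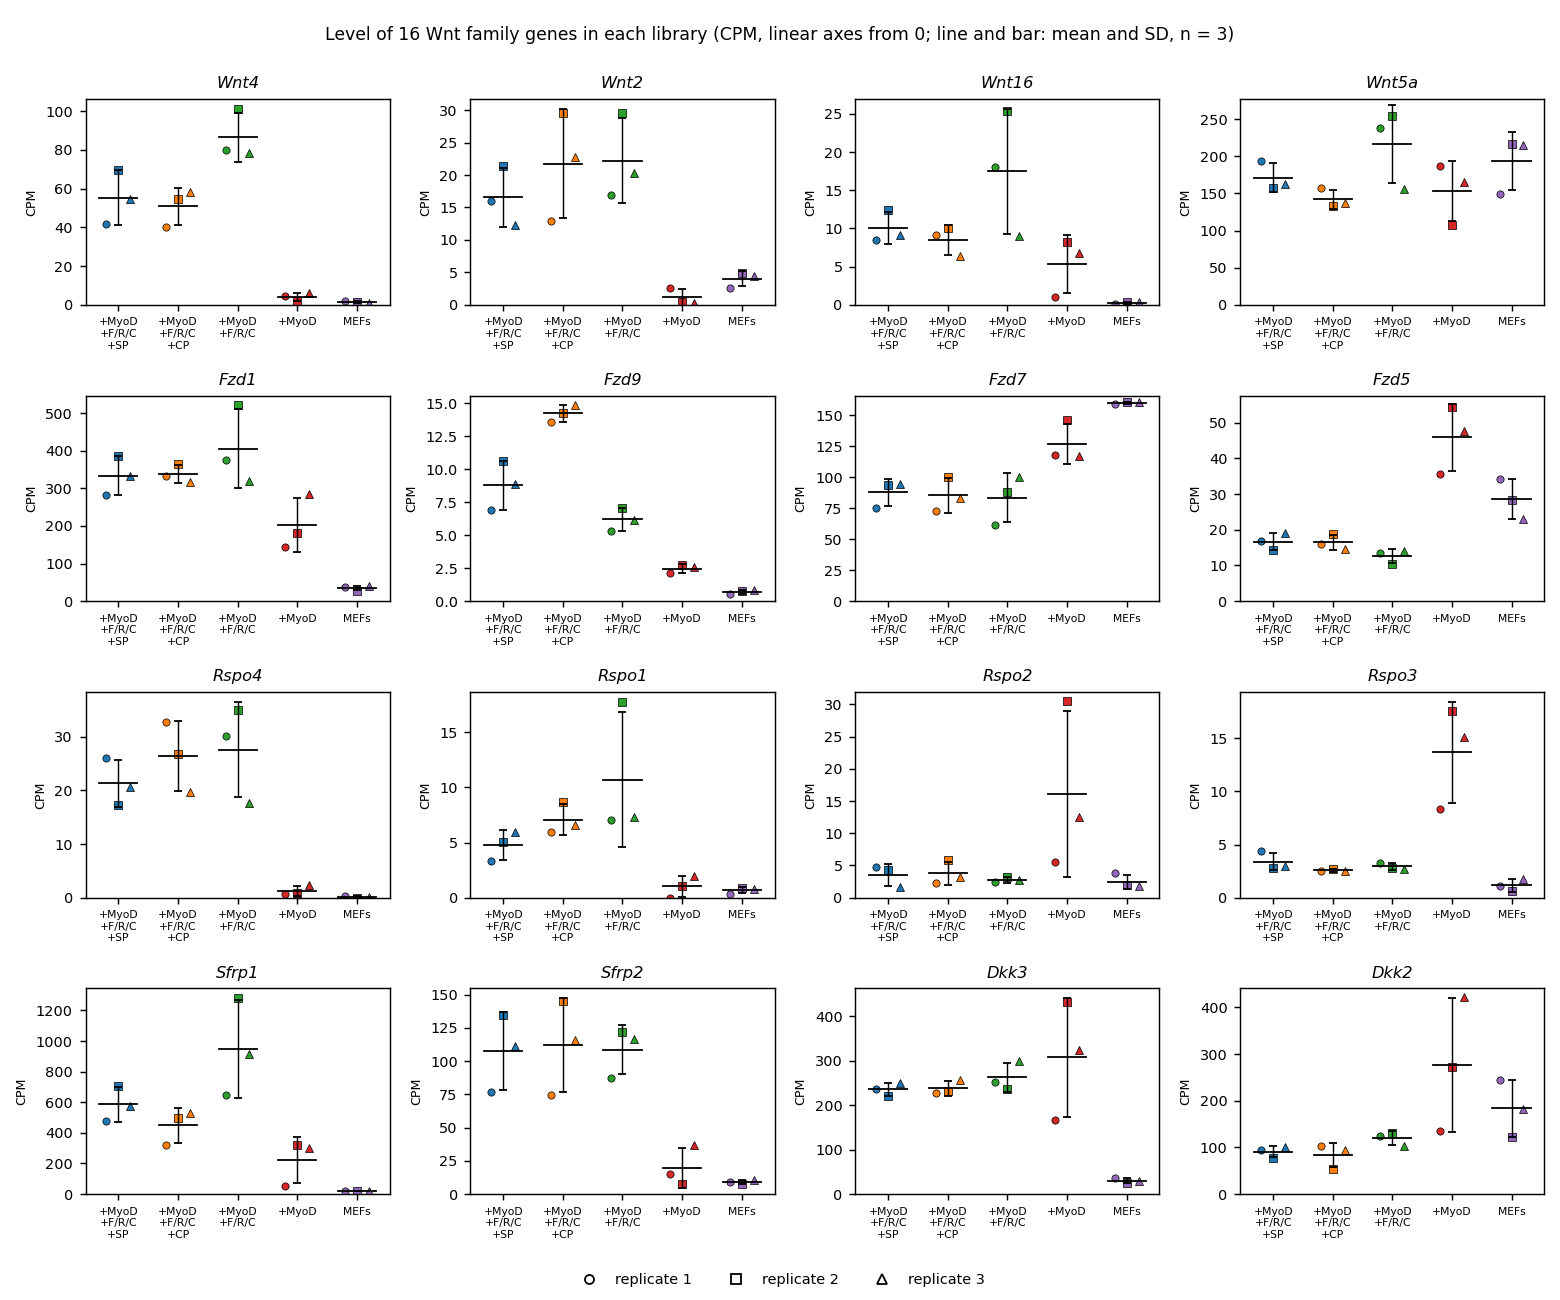
Level (CPM, vertical axes, linear from 0) of 16 members in the 15 libraries, with conditions from left to right and symbols for replicates; lines and bars are the mean and SD. Wnt4, Rspo4 and Rspo1 are high only where F/R/C was given, Rspo2 and Rspo3 have their highest mean in +MyoD, and Fzd1 and Sfrp1 are lowest in MEFs.

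Among the receptors the leading gene changed. Frizzled RNA summed to 267 ± 45.3 TPM in +MyoD+F/R/C, 216 ± 47.2 TPM in +MyoD and 116 ± 3.25 TPM in MEFs. Fzd1 made up 62.7% ± 4.66 of it in +MyoD+F/R/C, 36.7% ± 7.46 in +MyoD and 10.9% ± 1.92 in MEFs. Fzd7 made up 12.2% ± 3.82, 22.0% ± 5.19 and 45.8% ± 2.12 in the same order. Fzd2 was second in MEFs with 22.4% ± 2.42. These are shares within the family, so a rise of Fzd1 lowers the share of the others.

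Fzd1 had 375, 522 and 320.3 CPM in +MyoD+F/R/C, 143, 181 and 284 CPM in +MyoD and 37.1, 27.8 and 39.4 CPM in MEFs. The 3 groups did not overlap, and it was called higher at both steps (log2FC 2.54 ± 0.25 SE, adjusted p = 8.9e-07 with MyoD and log2FC 1.0 ± 0.23 SE, adjusted p = 0.006 with F/R/C).
Fzd7, a receptor through which Wnt7a acts on muscle satellite cells in mouse, had 61.6, 87.8 and 100.3 CPM in +MyoD+F/R/C, 118, 146 and 117 CPM in +MyoD and 159, 160.4 and 160.4 CPM in MEFs. It was lowest with F/R/C, in all 3 lines (log2FC -0.61 ± 0.17 SE, adjusted p = 0.018, and log2FC -0.94 ± 0.17 SE, adjusted p = 0.00026 against MEFs). The call against +MyoD was lost without +MyoD+F/R/C replicate 1 or +MyoD replicate 2 (log2FC -0.50 to -0.40, adjusted p = 0.071 to 0.11).
Fzd5 had 13.6, 10.4 and 14.1 CPM in +MyoD+F/R/C, 35.6, 54.3 and 47.6 CPM in +MyoD and 34.3, 28.4 and 23 CPM in MEFs. It rose with MyoD (log2FC 0.68 ± 0.19 SE, adjusted p = 0.0095) and fell below MEFs with F/R/C (log2FC -1.85 ± 0.20 SE, adjusted p = 1.8e-05). The call with MyoD was lost without +MyoD replicate 2 or MEFs replicate 3 (log2FC 0.54 to 0.54, adjusted p = 0.052 to 0.059).
Fzd9 had 5.34, 7.08 and 6.15 CPM in +MyoD+F/R/C, 2.10, 2.71 and 2.61 CPM in +MyoD and 0.528, 0.793 and 0.820 CPM in MEFs. Its levels stood in separate ranges in the 3 groups and rose at both steps (log2FC 1.79 ± 0.26 SE, adjusted p = 4.4e-05 and log2FC 1.32 ± 0.24 SE, adjusted p = 0.0011).

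Fzd8 had 30.3, 30.9 and 31.7 CPM in +MyoD+F/R/C, 20.1, 37.8 and 56.3 CPM in +MyoD and 10.8, 9.51 and 10.7 CPM in MEFs. It rose with MyoD (log2FC 1.88 ± 0.26 SE, adjusted p = 2.5e-05), and +MyoD+F/R/C lay inside the range of +MyoD.
Fzd10 had 5.34, 0.694 and 2.52 CPM in +MyoD+F/R/C, 2.35, 0.175 and 0.890 CPM in +MyoD and 0.834, 0.934 and 0.527 CPM in MEFs. It was called only in +MyoD+F/R/C against MEFs, where the groups overlapped (log2FC 1.89 ± 0.72 SE, adjusted p = 0.037), and with the line as a block it was not called (log2FC 1.62, adjusted p = 0.065). The call was also lost without MEFs replicate 1, +MyoD+F/R/C replicate 1, MEFs replicate 2, MEFs replicate 3 or +MyoD+F/R/C replicate 3 (log2FC 1.05 to 2.05, adjusted p = 0.06 to 0.26), and with counts scaled by transcript length (log2FC 1.85, adjusted p = 0.05, above the threshold before rounding).
Fzd2 had 50.6, 88.2 and 46.5 CPM in +MyoD+F/R/C, 59.2, 154 and 90.6 CPM in +MyoD and 52.0, 64.6 and 71.6 CPM in MEFs, with replicate 2 the highest of both groups with MyoD. No difference of Fzd2 was called, although with the line as a block it was higher in +MyoD than in MEFs (log2FC 0.58, adjusted p = 0.046) and lower in +MyoD+F/R/C than in +MyoD (log2FC -0.68, adjusted p = 0.04).
Fzd3, Fzd4 and Fzd6 were not called at either step, with log2FC of -0.54, 0.33 and 0.10 in +MyoD against MEFs. With the line as a block Fzd3 was lower in +MyoD than in MEFs (log2FC -0.68, adjusted p = 0.023).

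The R-spondins changed places between the steps. They summed to a mean of 36.8 ± 12.7 TPM in +MyoD+F/R/C, 19.4 ± 9.51 TPM in +MyoD and 2.61 ± 0.486 TPM in MEFs (SD, n = 3). In every +MyoD library Rspo2 and Rspo3 together made up most of this, and in every +MyoD+F/R/C library Rspo4 and Rspo1 did.

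Rspo4 had 30.1, 35.0 and 17.7 CPM in +MyoD+F/R/C, 0.689, 0.844 and 2.37 CPM in +MyoD and 0.250, 0 and 0.0878 CPM in MEFs. It rose at both steps without overlap (log2FC 3.48 ± 0.67 SE, adjusted p = 0.00054 and log2FC 4.40 ± 0.51 SE, adjusted p = 2.8e-05), and its MEF level rested on 12 counts over 3 libraries.
Rspo1 had 7.03, 17.8 and 7.33 CPM in +MyoD+F/R/C, 0, 1.08 and 1.96 CPM in +MyoD and 0.361, 0.878 and 0.820 CPM in MEFs. The 3 libraries with F/R/C were the highest, with replicate 2 above the others (log2FC 3.40 ± 0.80 SE, adjusted p = 0.0065), while +MyoD and MEFs overlapped. With counts scaled by transcript length the call was lost (log2FC 2.66, adjusted p = 0.067).
Rspo2, which is required for limb muscle formation in mouse, had 2.41, 3.27 and 2.67 CPM in +MyoD+F/R/C, 5.48, 30.5 and 12.5 CPM in +MyoD and 3.75, 1.90 and 1.78 CPM in MEFs. It was called higher with MyoD (log2FC 2.70 ± 0.58 SE, adjusted p = 0.0013) and lower with F/R/C (log2FC -2.53 ± 0.58 SE, adjusted p = 0.005), back inside the range of MEFs.
Rspo3 had 3.27, 2.80 and 2.73 CPM in +MyoD+F/R/C, 8.39, 17.6 and 15.2 CPM in +MyoD and 1.06, 0.595 and 1.78 CPM in MEFs. It rose with MyoD in every line (log2FC 3.58 ± 0.40 SE, adjusted p = 3.2e-06), fell with F/R/C (log2FC -2.22 ± 0.37 SE, adjusted p = 0.00053) and stayed above MEFs (log2FC 1.36 ± 0.37 SE, adjusted p = 0.0064). Replicate 1 was the lowest +MyoD library for both Rspo2 and Rspo3.
Of the R-spondin receptors, Lgr6 was called lower with F/R/C than with +MyoD (log2FC -3.38 ± 0.28 SE, adjusted p = 2.3e-06), at 2.96, 2.15 and 1.77 CPM in +MyoD+F/R/C, 23.3, 25.7 and 22.8 CPM in +MyoD and 30.8, 28.5 and 39.9 CPM in MEFs. Lgr5, the marker of intestinal stem cells, was called higher with MyoD (log2FC 3.82 ± 0.67 SE, adjusted p = 0.00023), and Lgr4 was called lower with MyoD (log2FC -0.68 ± 0.15 SE, adjusted p = 0.0018).

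The summed level of the Sfrp family stood at 510.2 ± 152 TPM in +MyoD+F/R/C, 114 ± 63.2 TPM in +MyoD and 16.3 ± 2.32 TPM in MEFs (SD, n = 3). Fibroblast markers rose in the same comparison with MEFs (their sums are given above), and their part in these differences was not tested.

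Sfrp1 had 648, 1281 and 916 CPM in +MyoD+F/R/C, 49.2, 323 and 298 CPM in +MyoD and 21.6, 20.2 and 22.1 CPM in MEFs. It was higher at each step with no overlap (log2FC 3.39 ± 0.50 SE, adjusted p = 5.2e-05 with MyoD and log2FC 2.09 ± 0.47 SE, adjusted p = 0.005 with F/R/C), and +MyoD replicate 1 was again the lowest of its group.
Sfrp2, a matrix-bound member of the family expressed in fibroblasts, had 87.4, 122 and 116 CPM in +MyoD+F/R/C, 15, 7.22 and 36.5 CPM in +MyoD and 9.29, 7.62 and 10.7 CPM in MEFs. The rise came with F/R/C, in all 3 lines (log2FC 2.47 ± 0.43 SE, adjusted p = 0.00078). With MyoD alone the groups overlapped and replicate 2 was below its own MEFs (log2FC 1.09 ± 0.42 SE, adjusted p = 0.048). With the line as a block that call was lost (log2FC 1.0, adjusted p = 0.051), as it was without MEFs replicate 1, MEFs replicate 2, MEFs replicate 3 or +MyoD replicate 3 (log2FC 0.27 to 1.21, adjusted p = 0.071 to 0.57).
Sfrp4 had 5.03, 5.30 and 4.88 CPM in +MyoD+F/R/C, 1.5, 5.24 and 12.1 CPM in +MyoD and 0.167, 0.113 and 0.176 CPM in MEFs. It rose with MyoD (log2FC 5.34 ± 0.65 SE, adjusted p = 8.6e-06) and +MyoD+F/R/C lay inside the range of +MyoD.
Sfrp5, which was not called, had 15, 7 and 3 counts in +MyoD+F/R/C, 3, 0 and 0 in +MyoD and 0, 0 and 1 in MEFs, and 11, 0 and 2 with SP and 23, 22 and 9 with CP. DESeq2 called it higher in +MyoD+F/R/C than in MEFs (log2FC 4.37, adjusted p = 0.04). Sfrp2 counts include a processed transcript, Sfrp2-202, to which 18.1 to 32.2% of the gene's TPM was assigned in +MyoD+F/R/C.

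Dkk2 was the main Dickkopf in MEFs and Dkk3 in +MyoD+F/R/C. Dkk3, a divergent member that does not block LRP5 and LRP6 as the others do, had 252, 238 and 300 CPM in +MyoD+F/R/C, 166, 433 and 324 CPM in +MyoD and 35.7, 24.3 and 30.1 CPM in MEFs. It rose with MyoD in every line (log2FC 3.36 ± 0.27 SE, adjusted p = 1.6e-07), and +MyoD+F/R/C lay inside the range of +MyoD.
Dkk2 had 125, 130.2 and 103 CPM in +MyoD+F/R/C, 134, 272 and 422 CPM in +MyoD and 245, 123 and 182 CPM in MEFs. It was called lower with F/R/C than with +MyoD (log2FC -1.21 ± 0.34 SE, adjusted p = 0.018), although +MyoD replicate 1, at 134 CPM, nearly reached the +MyoD+F/R/C libraries. The call was lost without +MyoD+F/R/C replicate 1, +MyoD replicate 3 or +MyoD+F/R/C replicate 3 (log2FC -1.23 to -0.77, adjusted p = 0.055 to 0.1).
Dkk1, itself a target of β-catenin, stayed low, with 1.81, 0.0248 and 0.241 CPM in +MyoD+F/R/C, 0.376, 0.262 and 0.0297 CPM in +MyoD and 0.195, 0 and 0.263 CPM in MEFs, and no difference was called.

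**Figure D3:**
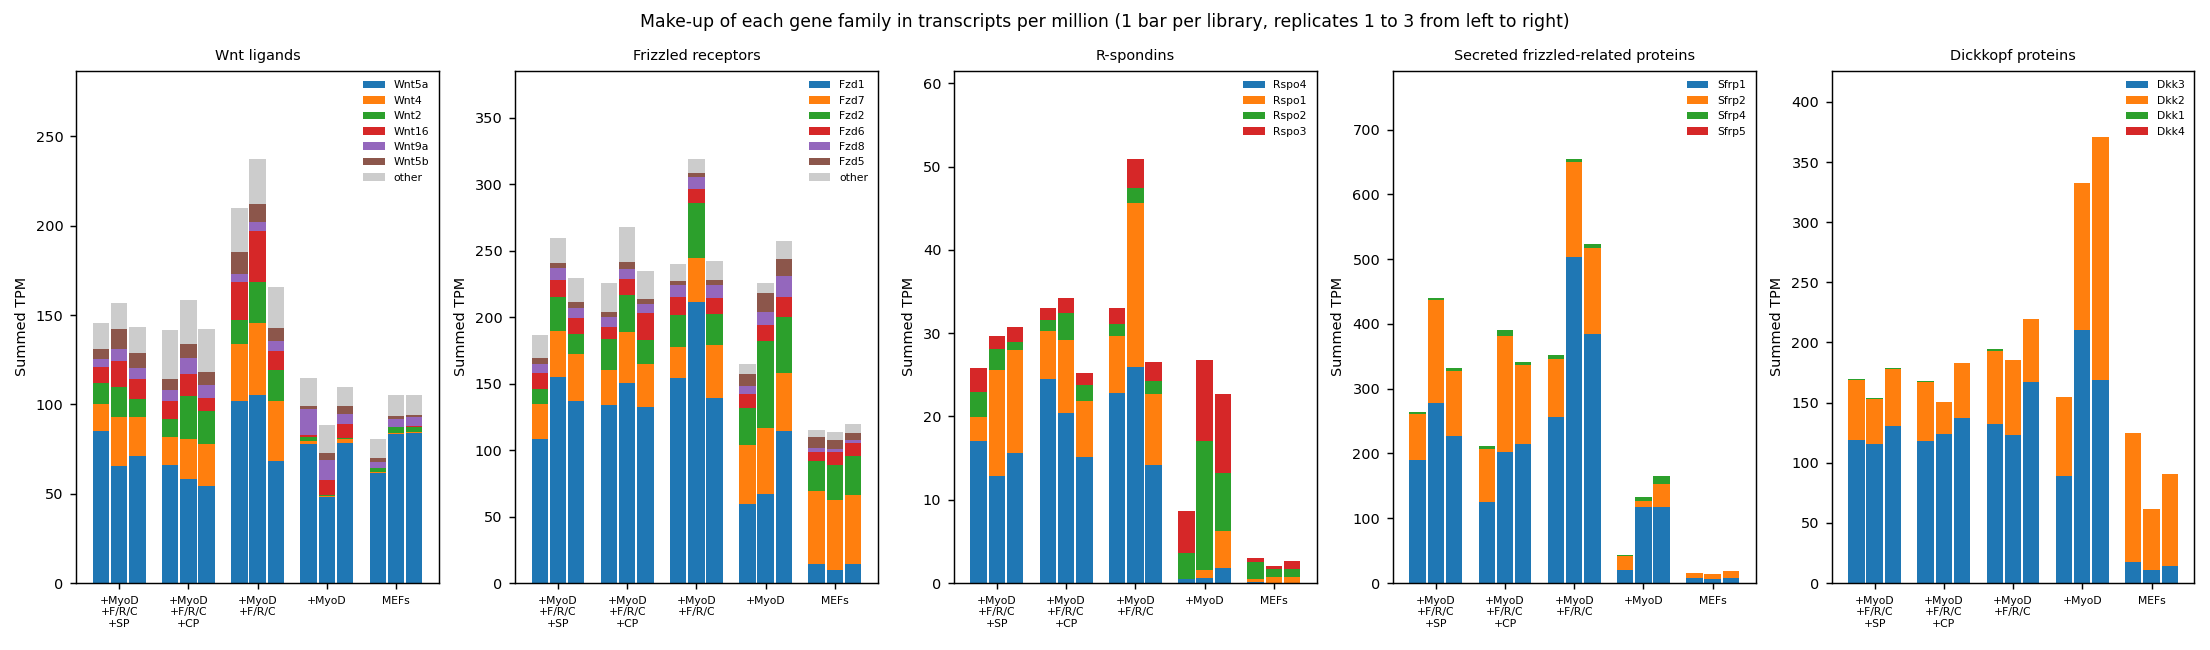
Summed TPM of each family (vertical axes) in each library, 1 bar per library with conditions from left to right and replicates 1 to 3 within each, coloured by gene. Fzd1 takes the largest part of the Frizzled bars in all transfected libraries and Fzd7 in MEFs, and Rspo4 takes the largest part of the R-spondin bars in the +MyoD+F/R/C libraries, against Rspo2 or Rspo3 in +MyoD.

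Leaving out +MyoD replicate 1 gave the highest counts of called members at both steps. Of 35 members detected in +MyoD, replicate 1 held the lowest value of 18 (Sfrp1, Wnt16 and Rspo2 among them) and the highest of 11 (Wnt7b and Wnt2 among them). Replicate 2 held the lowest of 8 and replicate 3 the lowest of 11. Without it, 19 members were called higher and 4 lower in +MyoD against MEFs, and 15 higher and 9 lower in +MyoD+F/R/C against +MyoD. The members gained with MyoD were Dkk2, Fzd2, Fzd4 and Wnt5b, called higher, and Fzd3 and Wnt7b, called lower, and Wnt3 was lost. At the F/R/C step Fzd3, Fzd10 and Wnt7b were gained as higher and Dkk3, Fzd4 and Fzd8 as lower, and Wnt9a, Wnt9b and Wnt11 were lost. The adipocyte markers summed to 5.73 to 38.4 CPM over the +MyoD libraries and the chondrocyte markers to 26.9 to 76.3 CPM, and the part of such cells in the spread was not tested.

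The other genes of the Wnt pathway were counted from a list of 59, of which 58 were tested. In +MyoD against MEFs 26 were called higher and 3 lower, beside 22.8% and 18.0% of all genes, with a median log2FC of 0.62 beside 0.12 over all genes. In +MyoD+F/R/C against +MyoD 12 were called higher and 8 lower, beside 10.9% and 8.39% of all genes, with a median of 0.06 beside 0.03. In +MyoD+F/R/C against MEFs 23 were called higher and 8 lower, beside 26.6% and 21.6% of all genes, with a median of 0.41 beside 0.19. The counts of each smaller list are to be read against the same shares of all genes.

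Both genes of ligand secretion rose with MyoD. Porcn, which attaches the lipid to Wnt proteins, had 20.1, 24.1 and 18.8 CPM in +MyoD+F/R/C, 9.49, 20.8 and 14.7 CPM in +MyoD and 3.42, 3.34 and 4.21 CPM in MEFs (log2FC 2.04 ± 0.25 SE, adjusted p = 8.5e-06 with MyoD). Wls, which carries the lipid-modified ligand to the surface, had 237, 212 and 234 CPM in +MyoD+F/R/C, 462, 449 and 383 CPM in +MyoD and 198, 205 and 211 CPM in MEFs. Wls rose with MyoD (log2FC 1.07 ± 0.11 SE, adjusted p = 1.9e-06) and with F/R/C fell to just above the range of MEFs (log2FC -0.92 ± 0.11 SE, adjusted p = 4.2e-05). The lowest +MyoD+F/R/C library had 212.5 CPM and the highest MEF library 211.4 CPM.

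Other secreted modulators were called higher in 8 of 12 cases and lower in 0 with MyoD, and higher in 3 and lower in 3 with F/R/C. Frzb, the Sfrp3 of the literature, had 108, 88.4 and 155 CPM in +MyoD+F/R/C, 56.3, 64.0 and 185 CPM in +MyoD and 31.8, 22.3 and 34.7 CPM in MEFs and rose with MyoD (log2FC 1.78 ± 0.36 SE, adjusted p = 0.0008). Wif1, which binds Wnt ligands, had 10.0, 4.46 and 5.82 CPM in +MyoD+F/R/C, 2.29, 0.786 and 2.70 CPM in +MyoD and 0.139, 0.255 and 0.263 CPM in MEFs and rose at both steps (log2FC 3.12 ± 0.49 SE, adjusted p = 9.5e-05 and log2FC 1.81 ± 0.42 SE, adjusted p = 0.0054). Notum, an enzyme that removes the lipid from Wnt proteins and is a β-catenin target, had 96.5, 75.3 and 48.3 CPM in +MyoD+F/R/C, 7.52, 1.14 and 10.4 CPM in +MyoD and 0.417, 0.0849 and 0.146 CPM in MEFs. It rose at the F/R/C step without overlap (log2FC 3.53 ± 0.52 SE, adjusted p = 0.00019). Sostdc1, which binds LRP5 and LRP6, rose with MyoD (log2FC 3.22 ± 1.01 SE, adjusted p = 0.016). Sulf1, a heparan sulfatase, had 45.0, 37.6 and 55.6 CPM in +MyoD+F/R/C, 205, 433 and 311 CPM in +MyoD and 111, 137 and 111 CPM in MEFs and was called lower at the F/R/C step (log2FC -2.78 ± 0.23 SE, adjusted p = 1.9e-06), below MEFs.

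Among 21 receptors and co-receptors, 8 were called higher and 2 lower with MyoD, and 4 higher and 3 lower with F/R/C, where all genes had 22.8% and 18.0%, and 10.9% and 8.39%. Kremen2, a receptor for Dkk proteins, had 0.726, 0.743 and 0.809 CPM in +MyoD+F/R/C, 0, 0 and 0 CPM in +MyoD and 0, 0.0566 and 0.0293 CPM in MEFs and was at least 25.4-fold higher with F/R/C than with +MyoD, where it had no count (adjusted p = 0.00019). Ror1, a receptor for Wnt5a, had 15.4, 14.9 and 12.8 CPM in +MyoD+F/R/C, 3.88, 8.79 and 5.96 CPM in +MyoD and 1.67, 1.90 and 2.08 CPM in MEFs and rose at both steps (log2FC 1.72 ± 0.25 SE, adjusted p = 5.2e-05 and log2FC 1.21 ± 0.24 SE, adjusted p = 0.0022). Reck, a membrane protein of the Wnt7 receptor complex, rose with MyoD (log2FC 2.63 ± 0.29 SE, adjusted p = 2.9e-06). Lrp5 rose with MyoD and fell with F/R/C, with log2FC of 1.02 and -1.06 (adjusted p = 1.8e-05 and 6.3e-05). Lrp6 was not called, at log2FC of 0.25 and -0.14. Of 17 cytoplasmic and nuclear components, 6 were called higher and 1 lower with MyoD, and 0 higher and 1 lower with F/R/C. Pygo1, Bcl9l and Dvl1 were the genes named by size of change, with log2FC of 1.51 and 1.0 for Pygo1 and Bcl9l with MyoD and -0.72 for Dvl1 with F/R/C. Lef1, a β-catenin partner and target, had 3.27, 3.07 and 2.65 CPM in +MyoD+F/R/C, 8.96, 1.69 and 2.23 CPM in +MyoD and 5.76, 12.6 and 12.9 CPM in MEFs, and was called lower in +MyoD+F/R/C than in MEFs (log2FC -1.80 ± 0.54 SE, adjusted p = 0.011).
Of 6 genes of the negative feedback loop, 2 were called higher with MyoD and 5 with F/R/C, with none lower. Axin2, the usual reporter of β-catenin activity, had 27.4, 29.8 and 20.8 CPM in +MyoD+F/R/C, 4.32, 4.04 and 4.60 CPM in +MyoD and 1.06, 0.793 and 1.26 CPM in MEFs. It rose at both steps with no overlap (log2FC 2.06 ± 0.21 SE, adjusted p = 1.2e-06 and log2FC 2.59 ± 0.19 SE, adjusted p = 9.6e-07). Nkd1, which binds Dishevelled, rose with MyoD (log2FC 2.24 ± 0.28 SE, adjusted p = 9.9e-06) and was called higher with F/R/C as well. Its means were 45.73 CPM in +MyoD+F/R/C, 8.415 CPM in +MyoD and 1.785 CPM in MEFs. Tnfrsf19 rose with F/R/C (log2FC 3.94 ± 0.23 SE, adjusted p = 1.5e-07). Sp5, a transcription factor induced by β-catenin, had 61, 88 and 37 counts in +MyoD+F/R/C, 5, 0 and 0 in +MyoD and 0, 0 and 0 in MEFs, and was at least 52.4-fold higher in +MyoD+F/R/C than in MEFs.

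The SP and CP comparisons ask whether a JNK or a JAK inhibitor changes the F/R/C cultures. No member was called with SP and none with CP by edgeR's quasi-likelihood test, which called 0.0% and 0.0% of all genes higher and lower with SP, and 0.0% and 0.0362% with CP. At an unadjusted p under 0.05 there were 6 members with SP and 8 with CP, of 37, beside 6.62% and 7.91% of all genes. DESeq2 called Wnt2b lower with SP, where it called 0.288% of all genes higher and 0.117% lower, and Fzd9 higher with CP, where it called 0.468% higher and 0.816% lower. The median log2FC of the members was -0.28 with SP and -0.06 with CP. Both comparisons use the same 3 +MyoD+F/R/C libraries.

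Fzd9 had 6.88, 10.6 and 8.84 CPM in the SP libraries and 13.6, 14.2 and 14.8 CPM in the CP libraries, against 5.34, 7.08 and 6.15 CPM in +MyoD+F/R/C. All CP libraries were above all others, while the SP libraries overlapped with +MyoD+F/R/C. The difference with CP (1.20, 95% interval 0.69 to 1.70, unadjusted p = 0.00015, adjusted p = 0.1) was called with the line as a block (log2FC 1.21, adjusted p = 0.037). It was also called by DESeq2 (log2FC 1.19, adjusted p = 0.00013), by edgeR from the 2 groups alone (log2FC 1.20, adjusted p = 0.036) and by edgeR from the 9 libraries with F/R/C (log2FC 1.19, adjusted p = 0.025).
Wnt2b had 12.2, 11.7 and 9.87 CPM in the SP libraries and 16.2, 15.3 and 17.7 CPM in the CP libraries, against 22.1, 17.2 and 18.8 CPM in +MyoD+F/R/C. The SP libraries were the lowest and did not overlap with the others (-0.78, 95% interval -1.21 to -0.36, unadjusted p = 0.0014, adjusted p = 0.5 with SP). DESeq2 alone called it (log2FC -0.79, adjusted p = 0.031).
Fzd4 had 20.3, 21.3 and 20.3 CPM in the SP libraries and 26.2, 27.9 and 19.4 CPM in the CP libraries, against 8.45, 8.67 and 14.0 CPM in +MyoD+F/R/C. All 6 libraries with SP or CP were above all 3 without (1.24, 95% interval 0.36 to 2.11, unadjusted p = 0.0085, adjusted p = 0.39 with CP, and 0.99, 95% interval 0.12 to 1.86, unadjusted p = 0.028, adjusted p = 0.73 with SP). The CP difference was called only when the fit held the 9 libraries with F/R/C (log2FC 1.22, adjusted p = 0.026).

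Wnt3 had 12, 26 and 26 counts in the SP libraries and 73, 47 and 43 counts in the CP libraries, against 2, 0 and 10 counts in +MyoD+F/R/C. Every CP library exceeded every SP library, and every SP library exceeded every +MyoD+F/R/C library (3.92, 95% interval 1.30 to 6.55, unadjusted p = 0.0065, adjusted p = 0.37 with CP). The neighbouring Wnt9b had 7, 7 and 3 counts with SP and 64, 29 and 26 with CP, against 29, 0 and 4 in +MyoD+F/R/C. The Wnt9b counts of CP and +MyoD+F/R/C overlapped, and in CPM the lowest CP library lay just above the highest +MyoD+F/R/C library (0.763 against 0.752 CPM).
Wnt11 had 4.20, 3.43 and 1.78 CPM in the SP libraries and 10.4, 7.95 and 6.97 CPM in the CP libraries, against 2.57, 6.69 and 3.56 CPM in +MyoD+F/R/C. The CP libraries were the highest, with 95% interval 0.00 to 1.96 of the log2FC (adjusted p = 0.63).
In these libraries 5 melanocyte markers summed to 21.1 to 34.5 CPM with SP and 45.8 to 68.0 CPM with CP, against 15.4 to 23.6 CPM in +MyoD+F/R/C. Tyrp1, a defining marker among them, had 0.0782, 0 and 0 CPM in the SP libraries and 2.78, 13.7 and 3.07 CPM in the CP libraries, against 0, 0 and 0 CPM in +MyoD+F/R/C. The 7 satellite cell markers summed to 36.6 to 95.6 CPM with SP and 41.9 to 86.9 CPM with CP, against 16.7 to 22.5 CPM in +MyoD+F/R/C, Pax7 among them with 5.97, 20.4 and 4.99 CPM in the SP libraries and 12.7, 14.1 and 5.45 CPM in the CP libraries, against 1.22, 0.669 and 0.284 CPM in +MyoD+F/R/C. The 5 adipocyte markers summed to 124 to 147 CPM with SP and 62.6 to 87.6 CPM with CP, against 36.9 to 69.3 CPM in +MyoD+F/R/C. The 5 macrophage markers summed to 9.30 to 9.96 CPM with SP and 12.1 to 22.9 CPM with CP, against 6.88 to 10.4 CPM in +MyoD+F/R/C. For the 5 epithelial markers the sums were 16.1 to 43.4 CPM with SP and 30.3 to 40.2 CPM with CP, against 15.1 to 27.8 CPM. No marker of these lists is a member, and their part in the differences of the members with SP or CP was not tested.

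Several abundant members were lower on average with both inhibitors. Wnt4 had 41.5, 69.8 and 54.5 CPM in the SP libraries and 40.0, 54.5 and 58.2 CPM in the CP libraries, against 79.7, 101 and 78.4 CPM in +MyoD+F/R/C, with no overlap (-0.76, 95% interval -1.45 to -0.08, unadjusted p = 0.031, adjusted p = 0.57 with CP, and -0.64, 95% interval -1.32 to 0.04, unadjusted p = 0.062, adjusted p = 0.75 with SP). Sfrp1 had 480.4, 704 and 574 CPM in the SP libraries and 320.2, 498 and 532 CPM in the CP libraries, against 648, 1281 and 916 CPM in +MyoD+F/R/C, where CP did not overlap with +MyoD+F/R/C and SP did (-1.08, 95% interval -2.05 to -0.10, unadjusted p = 0.034, adjusted p = 0.57 with CP). Wnt5a had 193, 157 and 163 CPM in the SP libraries and 157, 133 and 137 CPM in the CP libraries, against 238, 254 and 156 CPM in +MyoD+F/R/C, and replicate 3 of +MyoD+F/R/C lay among the inhibitor libraries (-0.60, 95% interval -1.06 to -0.15, unadjusted p = 0.013, adjusted p = 0.44 with CP). None of these was called.

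The other members gave wide or narrow intervals according to their level. Fzd1 had 282, 386 and 333 CPM in the SP libraries and 333, 363 and 316 CPM in the CP libraries, against 375, 522 and 320.3 CPM in +MyoD+F/R/C, with a 95% interval of -0.77 to 0.21 for the log2FC with SP and -0.76 to 0.23 with CP. Fzd7 had 75.3, 94.0 and 94.1 CPM in the SP libraries and 72.8, 100.3 and 83.0 CPM in the CP libraries, against 61.6, 87.8 and 100.3 CPM in +MyoD+F/R/C, with intervals of -0.29 to 0.44 and -0.33 to 0.40. Rspo4 had 26.0, 17.4 and 20.7 CPM in the SP libraries and 32.8, 26.8 and 19.6 CPM in the CP libraries, against 30.1, 35.0 and 17.7 CPM in +MyoD+F/R/C, with intervals of -1.28 to 0.54 and -0.97 to 0.84. These 3 genes overlapped between all 3 groups, and a change of up to these sizes cannot be told from none.
Sfrp2 had 76.9, 135 and 111 CPM in the SP libraries and 74.8, 146 and 116 CPM in the CP libraries, against 87.4, 122 and 116 CPM in +MyoD+F/R/C. Dkk3 had 237, 221 and 249.5 CPM in the SP libraries and 227, 231 and 257 CPM in the CP libraries, against 252, 238 and 300 CPM in +MyoD+F/R/C. Dkk2 had 94.0, 78.0 and 100.1 CPM in the SP libraries and 102, 54.1 and 94.1 CPM in the CP libraries, against 125, 130.2 and 103 CPM in +MyoD+F/R/C. Replicate 2 held the highest Sfrp2 value in each of the 3 groups, and all 6 Dkk2 values with SP or CP were below the 3 without, a difference that was not called. The Dkk2 value of CP replicate 1, at 102.5 CPM, lay just below that of +MyoD+F/R/C replicate 3, at 102.7 CPM.
Wnt2 had 16.0, 21.4 and 12.3 CPM in the SP libraries and 12.9, 29.6 and 22.7 CPM in the CP libraries, against 16.9, 29.5 and 20.3 CPM in +MyoD+F/R/C. Wnt16 had 8.53, 12.4 and 9.14 CPM in the SP libraries and 9.11, 10.1 and 6.34 CPM in the CP libraries, against 18.0, 25.4 and 9.06 CPM in +MyoD+F/R/C. Wnt5b had 8.21, 14.1 and 10.5 CPM in the SP libraries and 7.88, 9.18 and 8.84 CPM in the CP libraries, against 14.6, 13.0 and 8.42 CPM in +MyoD+F/R/C. For these 3 ligands the groups overlapped with both inhibitors.
Wnt9a had 8.95, 12.7 and 11.8 CPM in the SP libraries and 11.8, 16.9 and 14.5 CPM in the CP libraries, against 8.63, 10.0 and 10.5 CPM in +MyoD+F/R/C. Wnt10b had 0.548, 0.483 and 1.70 CPM in the SP libraries and 0.472, 1.24 and 0.444 CPM in the CP libraries, against 0.804, 0.545 and 1.38 CPM in +MyoD+F/R/C. Wnt10a had 0.887, 0.668 and 0.999 CPM in the SP libraries and 0.873, 0.842 and 1.08 CPM in the CP libraries, against 2.80, 1.36 and 1.44 CPM in +MyoD+F/R/C. All 6 Wnt10a values with SP or CP were below the 3 without, and all 3 CP values of Wnt9a were above them.
Wnt6 had 0.678, 0.852 and 1.09 CPM in the SP libraries and 1.96, 2.18 and 0.760 CPM in the CP libraries, against 1.53, 1.93 and 2.08 CPM in +MyoD+F/R/C. Wnt7a had 3, 18 and 2 counts with SP and 1, 10 and 3 counts with CP, against 0, 0 and 0 counts in +MyoD+F/R/C. Wnt7a, at 0 in the 3 +MyoD+F/R/C libraries, had reads in each of the 6 inhibitor libraries, at least 8.32-fold higher with SP and 5.20-fold higher with CP against the floor of 3 counts, and neither difference was called. A processed transcript, Wnt7a-203, was assigned 0 to 100% of the gene's TPM in the SP libraries. The SP libraries of Wnt6 were below +MyoD+F/R/C without overlap.
Fzd5 had 16.9, 14.2 and 19.0 CPM in the SP libraries and 16.1, 18.8 and 14.7 CPM in the CP libraries, against 13.6, 10.4 and 14.1 CPM in +MyoD+F/R/C. Fzd8 had 25.2, 30.6 and 25.0 CPM in the SP libraries and 26.6, 25.6 and 23.7 CPM in the CP libraries, against 30.3, 30.9 and 31.7 CPM in +MyoD+F/R/C. Fzd10 had 4.75, 6.31 and 6.96 CPM in the SP libraries and 4.15, 4.50 and 4.69 CPM in the CP libraries, against 5.34, 0.694 and 2.52 CPM in +MyoD+F/R/C. Every inhibitor library was above all 3 of +MyoD+F/R/C for Fzd5. Fzd8 was below them in every CP library and in 2 SP libraries, and Fzd10 overlapped.
Rspo1 had 3.29, 5.09 and 5.93 CPM in the SP libraries and 5.99, 8.66 and 6.62 CPM in the CP libraries, against 7.03, 17.8 and 7.33 CPM in +MyoD+F/R/C. Rspo2 had 4.75, 4.33 and 1.63 CPM in the SP libraries and 2.31, 5.82 and 3.23 CPM in the CP libraries, against 2.41, 3.27 and 2.67 CPM in +MyoD+F/R/C. Rspo3 had 4.36, 2.81 and 3.03 CPM in the SP libraries and 2.48, 2.74 and 2.54 CPM in the CP libraries, against 3.27, 2.80 and 2.73 CPM in +MyoD+F/R/C. The SP libraries of Rspo1 were below +MyoD+F/R/C without overlap. A processed transcript, Rspo1-202, was assigned 0 to 73.9% of the gene's TPM in the SP libraries and 0 to 15.2% in +MyoD+F/R/C. All 9 Rspo3 values were below those of +MyoD, while for Rspo2 the highest CP library exceeded +MyoD replicate 1.
Sfrp4 had 3.57, 3.94 and 4.60 CPM in the SP libraries and 3.54, 7.50 and 4.66 CPM in the CP libraries, against 5.03, 5.30 and 4.88 CPM in +MyoD+F/R/C. Fzd2 had 25.1, 56.1 and 31.8 CPM in the SP libraries and 50, 58.6 and 37.0 CPM in the CP libraries, against 50.6, 88.2 and 46.5 CPM in +MyoD+F/R/C. Dkk1 had 1.23, 0.552 and 0.787 CPM in the SP libraries and 1.70, 0.711 and 0.0634 CPM in the CP libraries, against 1.81, 0.0248 and 0.241 CPM in +MyoD+F/R/C. Sfrp4 was below +MyoD+F/R/C in all 3 SP libraries, and the other groups of these 3 genes overlapped.

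**Figure D4:**
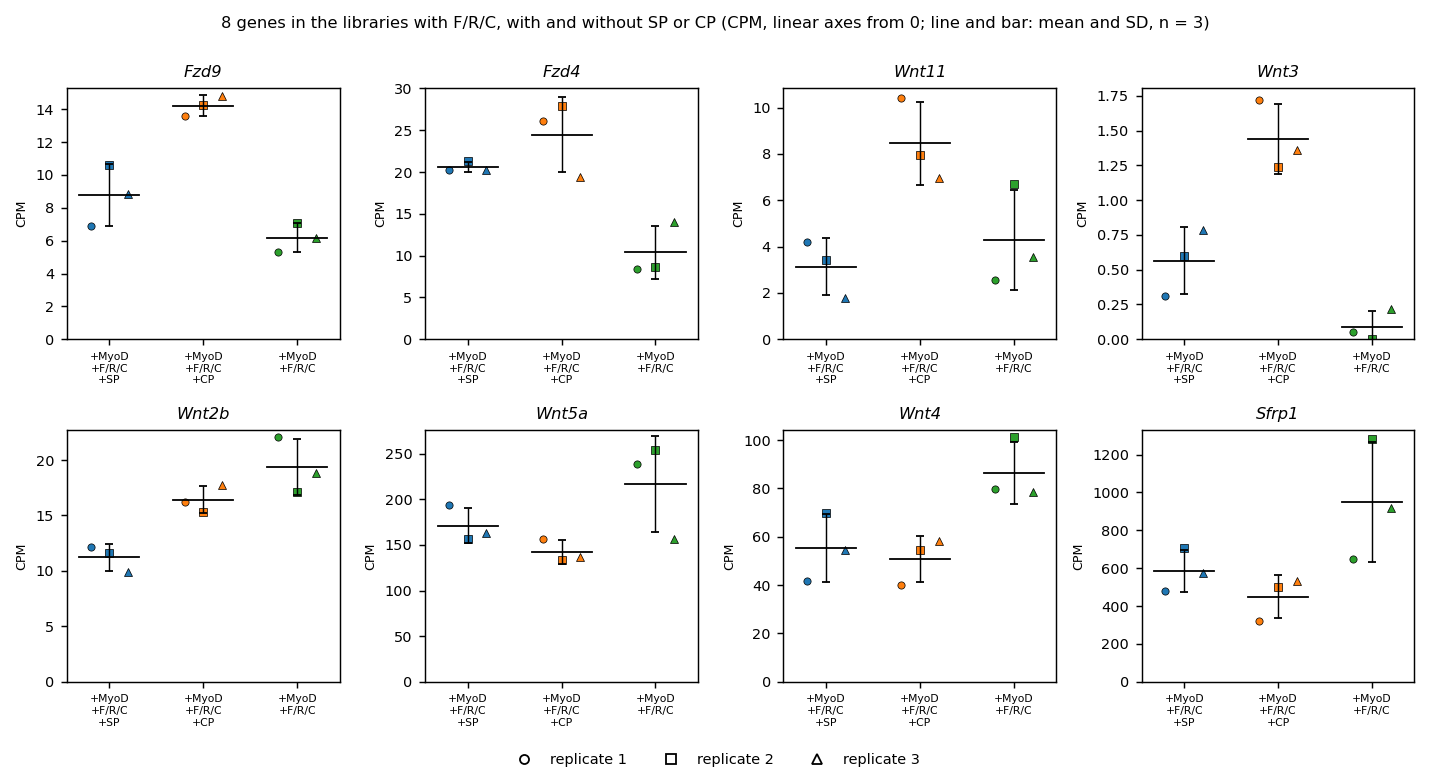
Level (CPM, vertical axes, linear from 0) of 8 members in the 9 libraries with F/R/C, with SP, CP or neither from left to right; symbols are replicates, lines and bars the mean and SD. The 3 CP libraries hold the highest Fzd9 values, 13.6 to 14.8 CPM, and the 3 SP libraries the lowest Wnt2b values, 9.87 to 12.2 CPM.

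Of the 58 other pathway genes, edgeR called 0 with SP and 0 with CP, with 4 and 9 at an unadjusted p under 0.05, where 6.62% and 7.91% of all genes were. DESeq2 called 1 with each, Sulf1 higher with SP and Tnfrsf19 higher with CP. Axin2 had 26.8, 25.7 and 25.7 CPM in the SP libraries and 29.9, 37.7 and 28.4 CPM in the CP libraries, against 27.4, 29.8 and 20.8 CPM in +MyoD+F/R/C, and Porcn had 15.4, 20.6 and 18.5 CPM in the SP libraries and 13.7, 13.4 and 15.8 CPM in the CP libraries, against 20.1, 24.1 and 18.8 CPM in +MyoD+F/R/C. Wls had 246, 208 and 239 CPM in the SP libraries and 219.5, 201 and 232 CPM in the CP libraries, against 237, 212 and 234 CPM in +MyoD+F/R/C. The Axin2 values stayed above those of +MyoD and MEFs in all 9 libraries with F/R/C.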

How the data were processed

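The members and gene lists were chosen with earlier results of these data known. Per the labels and the study's methods, poly-A RNA was sequenced (TruSeq Stranded mRNA, single-end reads), demultiplexed with bcl2fastq 2.20, trimmed with fastp 0.20.0 and quantified with kallisto 0.46.1 on GRCm38.p6. The authors deposited estimated counts and TPM for each transcript and library. TPM were deposited as kallisto scaled them, for each library to its own total, so they compare genes per length but keep no depth.

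Transcripts were matched to genes by their identifiers (121104 of 121843; the 739 without a match held 0.236 to 0.327% of the counts), and estimated counts and TPM were summed per gene. Summed counts were rounded to whole numbers and tested with edgeR 4.0.16 (R 4.3.3; TMM, filterByExpr with a minimum count of 10 and a total of 15, condition as the only term, all 15 libraries, common biological coefficient of variation 0.35, 10 residual degrees of freedom). This fit had no term for the MEF line. Its p-values therefore measure the spread between the 3 libraries, each a separate line, within the conditions. They do not measure how a difference varied from line to line. The pairing by line entered only the fit with the line as a block. DESeq2 1.42.0, other size factors, no filter, counts scaled by transcript length, smaller sets of libraries, the MEF line as a block and each library left out were tried as alternatives. The replicate numbers pair the libraries, since they name the MEF lines: 15 of 15 libraries deviated most like those of their own number (mean correlation of deviations 0.0737 over 30 pairs of the same number and -0.0368 over 60 pairs of different numbers). The deviations were centred within each group, so the second mean follows from the first and adds no separate evidence. Groups with no count were set to a floor of 3 counts over the group for fold bounds. These bounds cover the counting error of the group without counts only. The counts of the other group were taken as observed, and the spread between lines did not enter.

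Values in every library were given for members called in 1 or more comparisons with a group mean of at least 1 CPM and for the most abundant uncalled member of each family. Of the other pathway genes, Axin2, Lef1, Frzb, Wif1, Porcn, Wls and up to 2 called genes per list and comparison with the largest change were named. Lrp5, Lrp6, Lgr4, Lgr5 and Ror1 were named for their roles, after their values were seen. Wnt7b and Fzd4, outside this rule, were also given per library after their values were seen.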

Additional observations from a re-analysis of the deposited data

How the results depend on the processing

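Of 63 called differences of named members, 44 stayed called under every alternative run, 19 were lost under 1 or more and 0 of the 63 reversed. Another 19 differences were called only under an alternative. The count of called members at the F/R/C step was 11 from the 2 compared groups alone, where fewer genes and libraries entered, against 21. With SP it was 1 by DESeq2. With CP it was 1 by DESeq2, 1 from the 2 groups alone, 1 with the replicate block and 2 from the 9 libraries with F/R/C. With 1 library left out at a time, the counts were 15 to 23 for +MyoD against MEFs, 16 to 24 for +MyoD+F/R/C against +MyoD, 21 to 23 for +MyoD+F/R/C against MEFs, and 0 to 0 for SP and for CP. The replicate block changed no other call than those given in the report. Directions turned only for differences that were not called, and the cause was not tested. Fzd3 in +MyoD against MEFs had a log2FC of 0.07 with length-scaled counts. With 1 library left out at a time, the log2FC of the other such differences ran from -2.24 to 0.09 for Wnt7b in +MyoD against MEFs, -0.21 to 0.76 for Fzd4 in +MyoD against MEFs, -1.96 to 3.35 for Sfrp5 in +MyoD against MEFs, -0.07 to 1.16 for Dkk1 in +MyoD against MEFs, -0.60 to 0.09 for Fzd8 in +MyoD+F/R/C against +MyoD, -0.67 to 2.22 for Dkk1 in +MyoD+F/R/C against +MyoD, -0.52 to 0.10 for Dkk3 in +MyoD+F/R/C against +MyoD, -0.00 to 0.31 for Wnt5a in +MyoD+F/R/C against MEFs, -0.37 to 0.11 for Fzd2 in +MyoD+F/R/C against MEFs and -0.19 to 2.78 for Dkk1 in +MyoD+F/R/C against MEFs. Calls of members with few reads (Wnt3, Wnt9b, Wnt6 and Wnt7a) rested on few counts, and the depth of these libraries limits them.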
